A study of Mus musculus with 4 samples.

Results

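The genes described here are 9 inflammatory genes of a mouse β cell line: Nos2, the inducible nitric oxide synthase, the chemokine genes Cxcl1, Cxcl10, Ccl2, Ccl5 and Cx3cl1, and the cytokine genes Csf2, Lif and Tslp. They were chosen by symbol, from tables that list 406 named rows of 373 genes, and they hold 10 of those rows. The cells were NIT-1, a pancreatic β cell line of the NOD/Lt strain, at passages 20 to 25. The control group received the plasmid pRP[Exp]-CMVE>EGFP and the other group the plasmid pRP[Exp]-EGFP >ERR[gamma], 8.3 µg each with 16 µL of a liposomal reagent. Each group has 2 libraries, given as biological replicates. ERRγ, encoded by Esrrg, is an orphan nuclear receptor, and the series asked which genes change with it in β cells. Both groups went through transfection, and untransfected cells were not analysed here. Every difference is therefore between cells given the ERRγ plasmid, whose label also names EGFP, and cells given the EGFP control plasmid. The labels mention no sort for cells that took up a plasmid, and the work rests on 1 cell line.

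Inflamed islets make the products of these genes themselves, and in the NOD strain the islets come under autoimmune attack. A pair of signalling routes switches the genes on. NF-kB, activated by cytokines such as interleukin-1, enters the nucleus and binds κB sites, while interferons act through STAT and IRF factors that bind interferon-stimulated response elements (ISRE). Most such promoters read several inputs: Cxcl10 and Ccl5 are classed here as interferon driven and the other 7 genes as NF-kB driven, although Cxcl10 and Ccl5 also answer to NF-kB and Nos2 also answers to interferon.

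The 2 classes are shown by the 250 bases before the RefSeq start of Cxcl1 and of Cxcl10 (GRCm38.p6), the NF-kB driven and the interferon driven chemokine gene that the results set against each other. Capitals mark matches to the κB pattern GGGNNNNNCC or the ISRE pattern GAAANNGAAA, searched on both strands. The listed transcript starts 4 bases from the RefSeq start for Cxcl1 and 7 bases from it for Cxcl10.
Cxcl1, chr5:90890995-90891244, plus strand: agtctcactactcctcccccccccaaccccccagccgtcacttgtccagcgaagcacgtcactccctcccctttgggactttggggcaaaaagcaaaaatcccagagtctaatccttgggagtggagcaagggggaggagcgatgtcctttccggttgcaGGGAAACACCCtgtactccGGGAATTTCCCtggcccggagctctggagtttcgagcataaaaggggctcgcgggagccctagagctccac
Cxcl10, chr5:92348890-92349139, minus strand: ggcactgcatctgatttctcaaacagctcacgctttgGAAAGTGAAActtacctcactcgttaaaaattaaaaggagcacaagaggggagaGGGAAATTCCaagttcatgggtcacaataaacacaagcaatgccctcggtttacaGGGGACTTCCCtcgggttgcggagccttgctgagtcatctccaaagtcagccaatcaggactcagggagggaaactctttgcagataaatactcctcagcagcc

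Cxcl1 held 4 κB matches, which overlap in 2 blocks, and no ISRE match. Cxcl10 held 4 κB matches as well, also partly overlapping, and in addition 1 ISRE match, GAAAGTGAAA, that begins 213 bases before the start. The κB pattern is loose and occurs in 45.8% of all 32851 promoter windows of this length, whereas the ISRE pattern occurs in 2.98%. Neither window held AAGGTCA, the element that ERR receptors bind, present in 4.08% of windows, and Cxcl10 held 1 match to the AP-1 pattern TGANTCA, present in 6.75%. Of the other members, Csf2, Cx3cl1 and Lif were in the promoter table and Nos2, Ccl2, Ccl5 and Tslp were not. The windows of Csf2 and Cx3cl1 held none of these patterns, but the listed transcripts start 232 and 171 bases away from those RefSeq starts. The window of Lif, with 5 κB matches and 1 AP-1 match, lies 9527 bases from the start of the listed transcript and so belongs to another start site. These are matches of letters, and binding was not measured.

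The libraries held 16605943 to 18769899 reads, as recovered from the tables. The 10 rows took 0.182% and 0.215% of the reads in the controls and 0.127% and 0.120% in the ERRγ libraries. Esrrg checked the labels: the control libraries had 0.232 and 0 RPKM of Esrrg-201, and those given ERRγ had 141 and 78.6 RPKM (RPKM divides reads by transcript length and library size). Its other row, Esrrg-203, had 0 and 0.355 RPKM in control and 8.42 and 40.7 RPKM with ERRγ, so there the ERRγ replicates ranked the other way. No β cell marker of a list of 12, no macrophage or dendritic cell marker of 10, no lymphocyte marker of 9 and no endothelial marker of 5 had a row, so neither the labelled cell type nor other cells could be checked. Of 8 fibroblast or stellate cell markers only Acta2 had one (154 and 186 RPKM in control, 104 and 106 in ERRγ), and its part in the results was not tested. In bulk RNA, fewer cells making a transcript and less of it per cell cannot be told apart.

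All 10 rows lay below both controls in both ERRγ libraries, as did 45.6% of all 406 rows. The tables appear to be a selection made on these same libraries, because the groups do not overlap in 87.4% of rows, in one direction or the other. The direction of the members is therefore described and not counted as evidence. The p-values given below rest on the same rows, in their pooled spread and in their adjustment. How such a selection acts on those p-values was not tested. What differed among the members was the size: control levels were 1.43 to 3.18 times those with ERRγ over the 9 genes, with Csf2, Cxcl1 and Nos2 at one end and Cxcl10 and Ccl5 at the other.

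**Figure D1:**
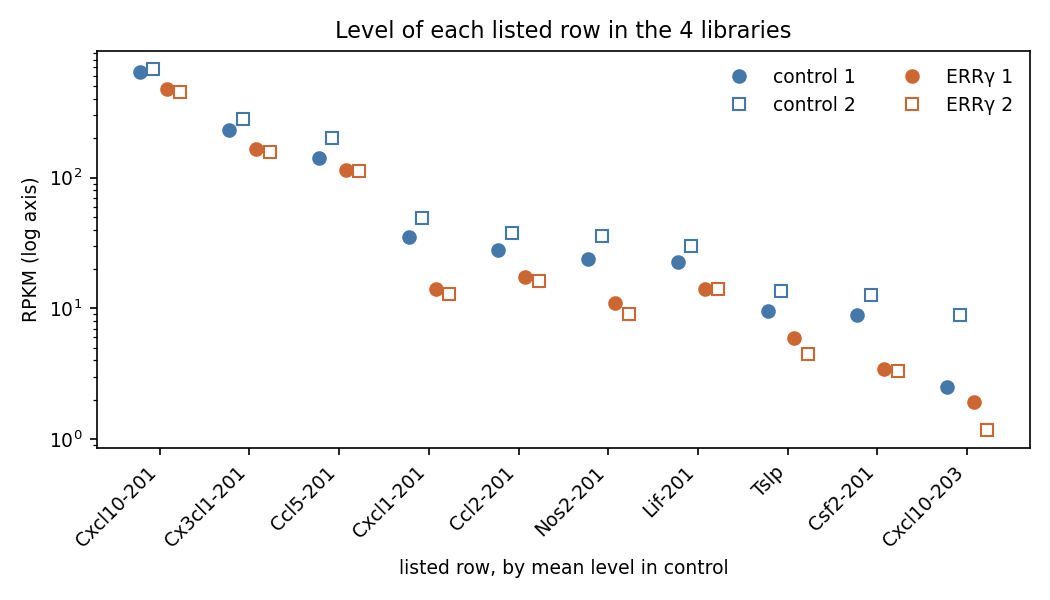
RPKM on a log axis for each listed row, 1 point per library, blue for control and orange for ERRγ, filled for replicate 1 and open for replicate 2, with rows ordered by their mean in control. Every row is lower in both ERRγ libraries, and the gap is widest on this axis for Cxcl1, Nos2 and Csf2 (and for the sparse row Cxcl10-203, whose controls differ by 3.61 times), and narrow for Cxcl10-201 and Ccl5-201.

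Nos2 makes nitric oxide from arginine and in β cells is switched on by inflammatory cytokines. Its listed row matches Nos2-201, the coding transcript of 27 exons (GRCm38 chromosome 11, 78920787 to 78960254, plus strand). Control cells held 23.9 and 35.6 RPKM of Nos2 and cells given ERRγ 11.0 and 9.08 RPKM, from 1882, 2522, 764 and 665 reads. The lowest control was 2.18 times the highest ERRγ library, while the controls differed from each other by 1.49 times. Nos2 fell both in uniquely placed reads (log2 fold change −1.59 ± 0.25 SE, edgeR, adjusted p = 7.14e-06) and in all reads (−1.57 ± 0.27, adjusted p = 0.0454).

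The NF-kB driven chemokines spanned a range of folds. Cxcl1, the gene of a neutrophil attractant that acts on CXCR2, lies at chromosome 5, 90891241 to 90893115 (plus strand). It stood at 34.9 and 49.1 RPKM in control and at 14.0 and 12.9 RPKM with ERRγ, a ratio of means of 3.12, and fell in unique reads (−1.61 ± 0.26, edgeR, adjusted p = 8.45e-06), while in all reads a fold of the same size (−1.64 ± 0.46) missed the threshold (adjusted p = 0.0693). Cxcl1 was thus high in control replicate 2, lower in control replicate 1, and at nearly one level in the ERRγ libraries.

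Ccl2, which calls monocytes through CCR2, lies at chromosome 11, 82035571 to 82037453 (plus strand). It stood at 27.9 and 37.4 RPKM in control and at 17.3 and 16.1 RPKM with ERRγ, and fell in unique reads (−0.94 ± 0.26, edgeR, adjusted p = 0.00599), while in all reads a fold of the same size (−0.97 ± 0.52) missed the threshold (adjusted p = 0.199). Cx3cl1, whose product fractalkine sits in the membrane as well as being shed and binds CX3CR1, lies at chromosome 8, 94772009 to 94782427 (plus strand). It was the most abundant NF-kB driven row, at 233 and 281 RPKM in control and 166 and 157 RPKM with ERRγ. Cx3cl1 fell in unique reads (−0.66 ± 0.14, edgeR, adjusted p = 0.000443) and in all reads (−0.67 ± 0.11, adjusted p = 0.0454), though by a smaller factor than Cxcl1 or Ccl2.

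Of the cytokine genes, Csf2 and Tslp were the least abundant members in all 4 libraries. Csf2, which encodes the myeloid growth factor GM-CSF, lies at chromosome 11, 54247271 to 54249667 (minus strand). It stood at 8.86 and 12.7 RPKM in control and at 3.46 and 3.29 RPKM with ERRγ, from 133, 171, 46 and 46 reads, the widest ratio of means (3.18) of the 9 genes when each is taken by its most abundant row. Every Csf2 read was unique, so its counts were identical in both tests. Its adjusted p was nevertheless 2.91e-05 (edgeR, unique reads, −1.67 ± 0.29) in one and 0.198 (edgeR, all reads, −1.67 ± 0.90) in the other. The tests differ in the spread pooled over the rows they hold, with a common dispersion of 0.0138 and 0.534.

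Tslp, a cytokine gene of barrier tissues whose product acts on dendritic cells, was likewise counted by unique reads alone. Tslp stood at 9.55 and 13.6 RPKM in control and at 5.95 and 4.50 RPKM with ERRγ, from 203, 260, 112 and 89 reads. It fell in unique reads (−1.14 ± 0.27, edgeR, adjusted p = 0.00108) and had nearly the same fold in all reads without passing (−1.15 ± 0.78, adjusted p = 0.255). The gene lies at chromosome 18, 32815383 to 32819797 (plus strand), and its row is 1133 nucleotides long, which no Tslp transcript in GENCODE M21 equals. Lif encodes a cytokine of the interleukin-6 family that signals through gp130, and its row matches Lif-201 (chromosome 11, 4267095 to 4272514, plus strand). Lif stood at 22.8 and 29.9 RPKM in control and at 14.1 RPKM in each ERRγ library. With 0 to 5 unique reads a library it was tested in all reads only, where it missed the threshold (−0.90 ± 0.21, edgeR, adjusted p = 0.0518).

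The interferon driven chemokines were abundant and differed least. Cxcl10, which draws activated T cells through CXCR3, had 2 rows: the coding transcript Cxcl10-201 (chromosome 5, 92346638 to 92348882, minus strand) and Cxcl10-203, a retained-intron transcript (92348001 to 92348882). Cxcl10-201 stood at 648 and 680 RPKM in control and at 476 and 449 RPKM with ERRγ, from 8581 to 13299 reads. The controls differed by 1.05 times and the groups by 1.43 times, and the row fell in unique reads (−0.45 ± 0.15, edgeR, adjusted p = 0.0158) and in all reads (−0.52 ± 0.07, adjusted p = 0.0454). Cxcl10-203 rested on 16, 52, 11 and 7 reads and stood at 2.48, 8.95, 1.93 and 1.17 RPKM, with the 2 controls wide apart (edgeR, all reads, adjusted p = 0.232).

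Ccl5, the gene of RANTES, a chemokine that draws T cells and macrophages, lies at chromosome 11, 83525778 to 83530518 (minus strand). It stood at 142 and 202 RPKM in control and at 114 and 112 RPKM with ERRγ, a ratio of means of 1.52. Ccl5 fell in unique reads (−0.61 ± 0.19, edgeR, adjusted p = 0.0125) and had nearly the same fold in all reads without passing (−0.60 ± 0.23, adjusted p = 0.125). Its controls lay further apart (1.42 times) than its lowest control and highest ERRγ library (1.24 times).

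The order of the levels changed in the middle only. Cxcl10, Cx3cl1 and Ccl5 ranked highest and Tslp and Csf2 lowest in all 4 libraries, at the most abundant row of each gene and per length. In both controls Cxcl1 came next after Ccl5, followed by Ccl2, Nos2 and Lif. In both ERRγ libraries the sequence was Ccl2, Lif, Cxcl1 and Nos2. Neighbours in that middle stretch lay close: over replicates, Cxcl1 had 42.0 ± 10.0 and Ccl2 32.7 ± 6.72 RPKM (SD, n = 2) in control. The control ranges of Ccl2, Nos2 and Lif overlapped, and that of Cxcl1 overlapped those of Ccl2 and Nos2. With ERRγ, Lif (14.1 RPKM) and Cxcl1 (14.0 and 12.9 RPKM) lay close, and no ranges overlapped in that stretch.

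In unique reads, 8 of 8 tested member rows were called lower, against 51.2% of all 121 tested rows called lower and 60.3% called in either direction. In all reads, 3 of 10 member rows (Nos2-201, Cxcl10-201 and Cx3cl1-201) were called lower, against 5.60% of 375 rows called lower and 6.67% called either way. Leaving out a control kept the unique-read count at 8, but without ERRγ replicate 1 it was 4 (Csf2, Cxcl1, Nos2 and Tslp) and without ERRγ replicate 2 it was 3 (Csf2, Cxcl1 and Nos2). None of the all-read calls held with any single library left out, where edgeR called 0 of 10 member rows and 3 to 7 of them had an unadjusted p under 0.05.

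In unique reads, scaling moved all folds by nearly the same amount, so the calls it changed followed the size of the fold. With library totals the median log2 fold change of all 121 rows was −0.38, and with TMM factors, which centre the table on itself, it was −0.03. Under TMM, Cxcl1 (−1.26, edgeR, adjusted p = 0.00345), Nos2 (−1.24, adjusted p = 0.00353), Csf2 (−1.32, adjusted p = 0.00397) and Tslp (−0.80, adjusted p = 0.0263) were still called lower. Ccl2 (adjusted p = 0.0759), Cx3cl1 (0.105), Ccl5 (0.341) and Cxcl10-201 (0.544) were not. DESeq2 with its own size factors called those same 4 rows. In all reads the calls did not follow the size of the fold. There DESeq2 called 5 of 10 member rows lower. Cxcl10-201 was among them (−0.32, DESeq2, adjusted p = 0.000178), and Csf2 was not (−1.47, adjusted p = 0.0975). Distances from the table's own median were taken on the log2 scale under library totals. In unique reads, Csf2, Cxcl1 and Nos2 lay 1.29, 1.23 and 1.21 below it, Tslp 0.76, Ccl2 0.56, Cx3cl1 0.28, Ccl5 0.23 and Cxcl10-201 0.07. In all reads each of these rows lay further below the median, Cx3cl1 by 0.40, Ccl5 by 0.33 and Cxcl10-201 by 0.25. The median of a selected table is not a neutral reference, and all 8 tested rows kept a negative fold change in all 12 settings run on unique reads.

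**Figure D2:**
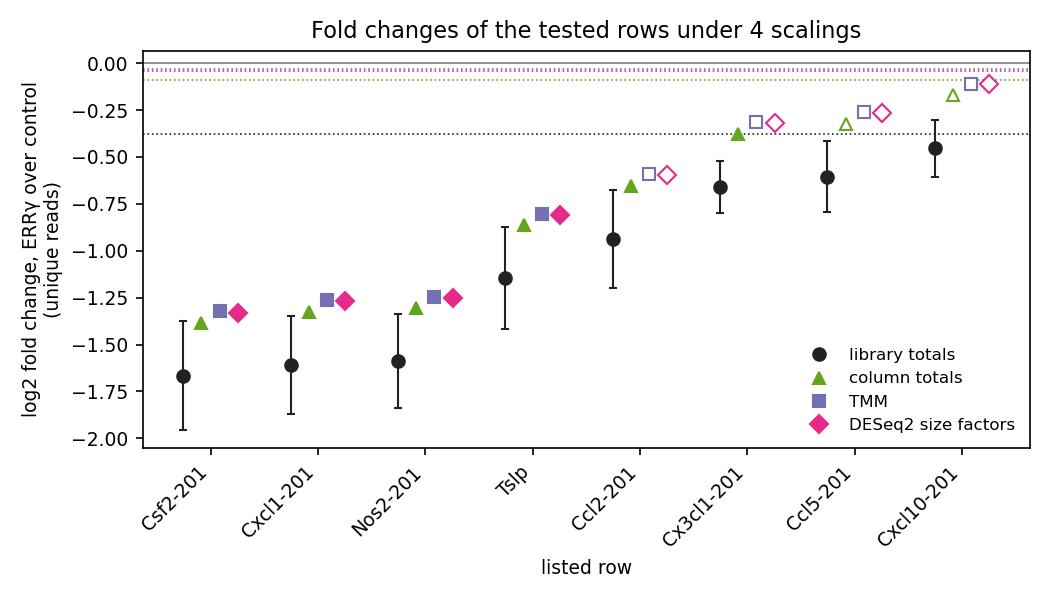
Log2 fold change (ERRγ over control, unique reads) of the 8 tested rows under 4 scalings: points are filled where the adjusted p was under 0.05, bars are ± 1 SE for library totals, and dotted lines give the median of all tested rows in the same colour. Csf2, Cxcl1, Nos2 and Tslp are filled under each scaling, whereas Cxcl10-201 moves from −0.45 to −0.11 and lies near the dotted line throughout.

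A ratio of 2 genes within a library does not depend on its scaling, so each NF-kB driven member was divided by Cxcl10-201. The log2 ratio of Cxcl1 to Cxcl10 was −4.21 and −3.79 in the controls and −5.09 and −5.12 in the ERRγ libraries, which is 2.15 times lower with ERRγ. That of Csf2 was −6.19 and −5.75 against −7.10 and −7.09, or 2.19 times lower. For Nos2 it was −4.76 and −4.25 against −5.44 and −5.63, or 2.04 times lower. These 3 genes lay lower relative to Cxcl10 in both ERRγ libraries than in either control.

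The ratio of Tslp to Cxcl10 was 1.53 times lower with ERRγ, that of Ccl2 1.35 times, that of Lif 1.29 times and that of Cx3cl1 1.11 times. For all 7 members both ERRγ libraries lay below both controls, against 19.2% of the 271 rows above 0 in every library when each is divided by Cxcl10-201, while 73.1% of them do not overlap in either direction. All 7 ratios share the denominator. Cxcl10-201 had the smallest ratio of control to ERRγ means of the 9 genes (1.43), followed by Ccl5 (1.52). Lower ratios to either therefore restate the order of those folds. For Cx3cl1 the gap was narrow, with log2 ratios of −1.47 and −1.27 in the controls and −1.52 and −1.51 with ERRγ. With 2 libraries against 2, the two-sided exact permutation test can give no p below 0.333, and it gave 0.333 for all 7, also after Benjamini-Hochberg adjustment over these 7 comparisons. The ratio of Ccl5 to Cxcl10, both interferon driven, was −2.19 and −1.75 in the controls and −2.03 ± 0.04 (SD, n = 2) with ERRγ, so the ERRγ libraries lay between the controls.

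With Ccl5 as the denominator the controls lay closer together for all members but Cx3cl1. The log2 ratio of Cxcl1 to Ccl5 was −2.03 and −2.04 in the controls and −3.03 and −3.12 with ERRγ. That of Csf2 was −4.01 in control replicate 1, within 0.01 of that in replicate 2, and −5.05 and −5.09 with ERRγ. That of Nos2 was −2.57 and −2.50 against −3.38 and −3.63. Against Ccl5 both ERRγ libraries lay below both controls for 6 of the 7 members, and for 15.9% of 271 rows (64.9% do not overlap in either direction), whereas for Cx3cl1 the groups overlapped (0.71 and 0.48 against 0.54 and 0.49), and the two-sided exact permutation test gave 0.333 for the 6 and 1.00 for Cx3cl1. Counting error alone was 0.04 to 0.22 (SE, log2) for the ratios of Cxcl1, Csf2 and Nos2 to Ccl5.

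**Figure D3:**
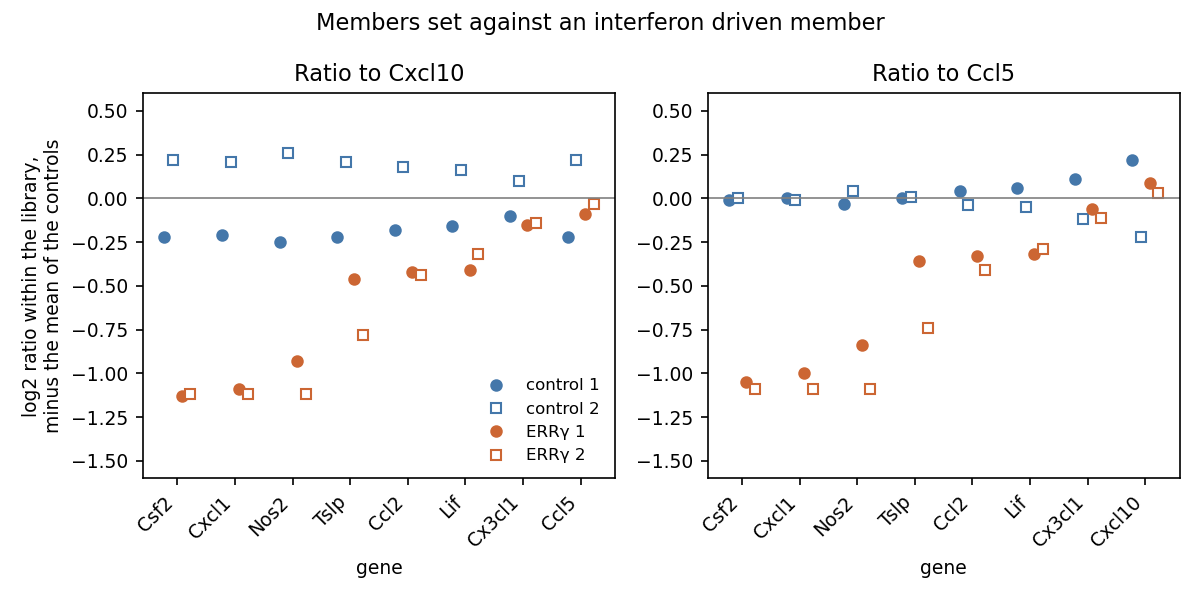
Log2 ratio of each gene to Cxcl10 (left) or Ccl5 (right) within a library, minus the mean of the 2 controls, with 1 point per library in the colours of the plot of levels. Csf2, Cxcl1 and Nos2 lie about 1 log2 unit below the controls in both panels, while Cx3cl1 stays close to the line and overlaps its controls on the right.

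Control replicate 2 was higher than control replicate 1 in all 10 member rows, against 56.8% of 234 rows with a mean of at least 5 RPKM and no zero. Over the NF-kB driven genes that excess was 1.20 to 1.49 times. It was 1.42 times for Ccl5, 1.05 times for Cxcl10-201 and 1.06 times at the median of those 234 rows. ERRγ replicate 1 was higher than ERRγ replicate 2 in 9 of 10 rows, Lif being the exception, and in 58.1% of the 234 rows. Nos2, Csf2 and Cxcl1, with the widest gaps between the groups, thus had controls 1.49, 1.43 and 1.41 times apart. The fold of Nos2 was −1.30 without control replicate 2 and −1.83 without control replicate 1 (log2, unique reads).

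Nos2, Cxcl1 and Csf2 were each other's nearest rows. Likeness was taken as the Euclidean distance between log2(RPKM + 1) values over the 4 libraries, each row centred on its own mean, among 253 other rows with a mean of at least 5 RPKM. The 2 rows nearest to Nos2 were Cxcl1 (distance 0.149) and Csf2 (0.158), and the third, Serpinb2-202, lay at 0.391. The 2 rows nearest to Cxcl1 were Nos2 and Csf2 (0.152). No member was among the 5 rows nearest to Cxcl10-201. Distance over 4 libraries is a description, since all rows share the same libraries and the same split between groups.

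**Figure D4:**
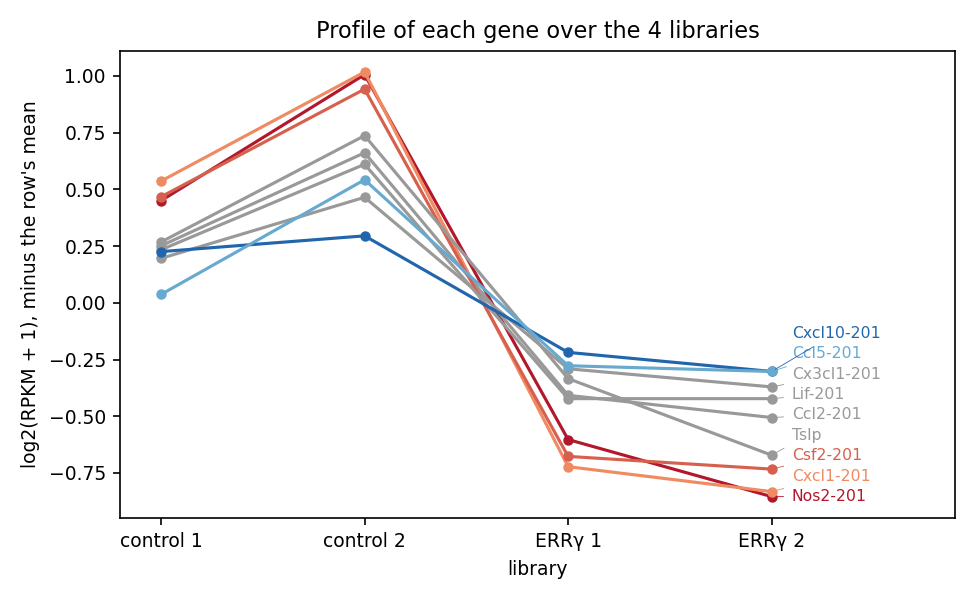
Centred log2(RPKM + 1) of the most abundant row of each gene over the 4 libraries, with Nos2, Cxcl1 and Csf2 in red to orange, Cxcl10 and Ccl5 in blue and the other members in grey. Those 3 lines run together and span the widest range, and all lines are higher in control 2 than in control 1.

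Among the 9 member rows with a matched transcript, exact sequence of read length was shared between transcripts of a gene and not between genes. Tslp has no matched transcript and was not checked, and the placing of the reads themselves was not examined. A read is 151 bases long per the labels, and in GENCODE M21 no window of that length of the 9 member rows with a matched transcript occurred in a transcript of another gene. All windows of Csf2-201 were found in no other transcript, and all its reads were unique. Of Nos2-201, 21.4% of windows were its own, the rest lying in Nos2-202 or Nos2-203, and 18.1% to 18.7% of its reads were unique. For Lif-201 it was 0.576% of windows, since Lif-202 holds nearly all of its sequence, and 0% to 0.308% of reads. Cxcl1-201 had 43.2% of windows and 37.8% to 40.0% of reads, and Cx3cl1-201 had 83.0% and 86.5% to 90.0%. Cxcl10-201 had 15.5% of windows its own but 47.5% to 51.3% of reads unique. The unique share of reads also exceeded that of windows in Cxcl10-203 (10.8% of windows, 14.3% to 45.5% of reads). The same held for Ccl2-201 (29.0% and 34.2% to 39.0%) and Ccl5-201 (75.9% and 86.5% to 88.4%). The unique share of reads of each of Nos2-201, Cxcl1-201 and Cx3cl1-201 was similar in all libraries, and the fold changes in unique and in all reads differed by at most 0.07 (log2) over the 8 rows tested in both.

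Other genes of these routes were few in the tables. Of 18 genes for NF-kB subunits, kinases and inhibitors only Nfkbia was listed, the gene of the inhibitor IκBα and itself an NF-kB target. Nfkbia stood at 130 and 159 RPKM in control and at 98.9 and 96.9 RPKM with ERRγ, and fell in unique reads (−0.58 ± 0.17, edgeR, adjusted p = 0.00843), while its all-read fold (−0.56 ± 0.13) missed the threshold (adjusted p = 0.0518). Its fold was near that of Cx3cl1 and Ccl5 and smaller than that of Nos2 or Cxcl1. Of 33 NF-kB target genes, 4 were listed, each with 1 row below both controls: Nfkbia, Ier3, Irf1 and Sdc4 (96.5 and 102 against 80.0 and 75.9 RPKM). Unique reads called 2 of 3 lower, Nfkbia and Ier3 (138 and 144 against 95.1 and 87.6 RPKM), and all reads called 1 of 4 lower, Irf1 (247 and 279 against 175 and 165 RPKM). Over all rows, 45.6% lay below both controls, and 51.2% and 5.60% of those tested were called lower in unique and in all reads. Their median log2 fold change was −0.58 in unique reads, where it was −1.04 over the 8 member rows and −0.38 over all rows.

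Of 59 interferon response genes, 12 were listed with 16 rows, 14 of them below and 2 above both controls. Unique reads called 5 of 9 lower and 0 higher, and all reads 2 of 16 lower and 0 higher, with a median of −0.45 in unique reads. The 5 of 9 is close to the 51.2% of all tested rows called lower in unique reads. In all reads 5.60% of tested rows were called lower, and 45.6% of all rows lay below both controls. Irf1, also counted among the NF-kB target genes above, was among the 2 rows called lower in all reads. Ifit2, an antiviral gene, had the smallest unique-read p of this list (22.0 and 21.7 against 10.6 and 9.27 RPKM, −1.13 ± 0.19, edgeR, adjusted p = 1.03e-05). The most abundant, Mx2-202 (2362 and 2339 against 2128 and 2126 RPKM) and Gbp2-201 (2234 and 2309 against 2035 and 2005 RPKM), did not pass in all reads (edgeR, adjusted p = 0.141 and 0.117). Next in level came Cmpk2-201 (575 and 521 against 415 and 377 RPKM) and Mx1-202 (410 and 439 against 371 and 381 RPKM). Cmpk2-201 (−0.45, edgeR, adjusted p = 0.0213), Oasl2-201 (−0.69, adjusted p = 0.0263) and Mx1-205 (−0.74, adjusted p = 0.0399) were among the 5 called lower in unique reads. Cxcl10-201, at −0.45, thus had the median fold of the interferon response list in unique reads, and Nos2, Cxcl1 and Csf2 lay below its lowest unique-read fold, that of Ifit2.

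Of 45 other chemokine and cytokine genes only Gdf15 was listed, a stress-induced cytokine gene that lay above both controls (49.4 and 82.0 against 96.5 and 92.1 RPKM) without passing in all reads (edgeR, adjusted p = 0.193). Of 15 receptor genes for the members only Il6st, which encodes gp130, was listed, by the transcript row Il6st-207 alone. That row stood at 7.77 RPKM (439 reads, 2 of them unique) in control replicate 1 and at 0 in the other 3 libraries. It does not give the level of the gene, since no other Il6st transcript had a row. None of 12 genes of nitric oxide and arginine metabolism besides Nos2 had a row.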

How the data were processed

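RNA from 4 libraries was sequenced as paired-end 151-base reads, per the labels' protocols. The build is mm8, per the submitters' processing notes; which aligner and counter were run is not given in the sources used here. Every deposited table gives RPKM beside 2 counts per row, of unique and of all gene reads, per the file headers. Rows with the ID 0 (3 of 409) held at most 0.0332% of listed reads and were left out. Row length times library size equals total reads over RPKM; 1 library size per table gave whole lengths within 0.000276 nucleotides. Of 406 rows, 397 equalled 1 GENCODE M21 transcript of their gene. GENCODE M21 annotates GRCm38, so these lengths match another build than the mm8 of the notes, and that difference was not resolved. Positions are GRCm38, and mm8 coordinates were not used.

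Both tests are edgeR 4.0.16 (R 4.3.3) quasi-likelihood tests with those library sizes, filterByExpr, no block, and Benjamini-Hochberg adjustment over all tested rows (threshold 0.05). SEs come from the fold change and F. Alternatives used TMM, column totals, other filters, DESeq2 1.42.0, limma 3.58.1 on log2(RPKM + 1) and log2(RPKM + 0.1), a replicate block and each library left out. The code was tested on simulated data. Their spread was below the common dispersion of the all-read test, and their rows were not selected on the simulated libraries. P-values from 2 against 2 lean on spread pooled over rows. All member rows are named, and of each other list the 4 rows with the largest mean RPKM and the 4 with the smallest unique-read p; of rows most alike, 5 each, of which 1 is not reported here. Members, lists and tests were chosen with earlier results of these data known. A floor of 3 reads equals 0.160 to 0.181 RPKM at 1 kb, counting error only.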

Additional observations from a re-analysis of the deposited data

How the results depend on the processing

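All member fold changes kept their negative sign under every alternative that gave a value, and all 7 ratios to Cxcl10 stayed below 0 (Cx3cl1 between −0.24 and −0.05, Cxcl1 between −1.31 and −0.89). Calls moved more. In unique reads 73 rows were called (11 higher, 62 lower), 41 with TMM (29 higher, 12 lower), 45 with column totals, 23 without a filter, 33 by DESeq2, and 10 to 98 with 1 library left out. Member rows called lower numbered 8, and 4 with TMM, 4 by DESeq2, and 3 to 8 with 1 library left out. In all reads 25 rows were called, 1 with TMM, 3 with column totals, 1 without a filter, 42 at a mean of at least 50 reads, 202 by DESeq2, 3 by limma with a pseudocount of 1 and 53 with 0.1, and 1 to 2 with 1 library left out. Member rows called lower numbered 3, then 0 with TMM, 0 with column totals, 0 without a filter, 0 by limma with a pseudocount of 1, 5 by DESeq2, and 0 to 0 with 1 library left out, and stayed 3 at a mean of at least 50 reads, with the rows of a gene added up and by limma with 0.1. An unadjusted p under 0.05 was seen in 5 member rows with TMM, column totals or no filter, in 3 to 7 with 1 library left out and in 8 by limma with a pseudocount of 1. The cause was not tested, except that a test without a filter holds more rows. With the replicate block, 71 rows and 8 members were called in unique reads, and 1 row and 0 members (edgeR; 5 at an unadjusted p under 0.05) in all reads. Equal replicate numbers share only a number: the correlation of replicate 1 minus replicate 2 between groups was 0.09 over 254 rows in RPKM and 0.21 over 100 rows in unique reads. The unique-read ratio of Lif to Cxcl10 was not run because 2 libraries held 0 unique reads of Lif. With a library left out, the lone one of its group was assumed to vary like the other group. Depth limits Csf2 and Cxcl10-203 most, with 46 and 7 reads in their sparsest library.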

Other observations

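Some listed rows outside the members ran like Nos2 and Cxcl1 over the 4 libraries. Serpinb2-202, for a plasminogen activator inhibitor, stood at 12.8 and 24.8 RPKM in control and at 8.60 and 6.37 RPKM with ERRγ. The predicted gene Gm9817-201 stood at 116 and 155 against 68.7 and 60.6 RPKM. Both were also higher in control replicate 2 than in control replicate 1, by 1.93 and 1.34 times. Dcaf11-206, for a ubiquitin ligase adaptor and among the 5 rows nearest to Cxcl1, was not (12.2 and 11.3 against 4.91 and 3.38 RPKM).

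The rows nearest to Cxcl10-201 were not chemokine genes. Bag3-201, for a co-chaperone, was closest (distance 0.066, 50.1 and 49.3 against 35.6 and 33.0 RPKM), followed by Ier3-201 and Phlda1-201 (both at a distance of 0.109). Asns-201, for asparagine synthetase, and Fosl1, for an AP-1 subunit, came next (0.117 and 0.125).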
